A study of Mus musculus with 10 samples.

Results

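Slc2a5 and Khk, the genes of intestinal fructose uptake and of the first step of fructose breakdown, were followed in the jejunum of mice whose intestinal epithelium did or did not express a yeast NADH dehydrogenase. They are 2 of the 45707 genes in the expression table and were taken by their gene names. The table holds RNA-sequencing libraries of 10 mice, 1 library per mouse. The controls were 5 Vil-Cre mice, which carry a Cre recombinase driven by the villin promoter in intestinal epithelial cells. The other 5 were Vil-Cre:NDI1 mice, which carry the same Cre and in addition NDI1, the single-subunit NADH dehydrogenase of baker's yeast, at the ROSA26 locus behind a lox-stop-lox cassette. All mice were male littermates aged 8 to 12 weeks that had been fasted for 16 to 18 h, had received water by oral gavage and were sampled 1 h later. The jejunum was flushed and frozen whole, so each library mixes epithelium with lamina propria and muscle. In such tissue, fewer cells of a type and less RNA per cell cannot be told apart. No fructose or other sugar was given, so the values describe the fasted gut.

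Dietary fructose enters the enterocyte from the lumen through GLUT5, the protein of Slc2a5, and leaves it towards the blood through GLUT2, the protein of Slc2a2. Inside the cell, ketohexokinase, the protein of Khk, phosphorylates fructose to fructose 1-phosphate, which is then split into dihydroxyacetone phosphate and glyceraldehyde. Because this route bypasses the regulated steps of early glycolysis, it is known for consuming ATP quickly, and in the small intestine it converts part of the absorbed sugar before it reaches the liver. Expression of Slc2a5 and of the fructolytic enzymes is known to rise when the gut is exposed to fructose, through the transcription factor ChREBP.

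Slc2a5 (ENSMUSG00000028976) lies on GRCm38 chromosome 4 at 150119283 to 150144169 on the plus strand, with 4 transcripts in GENCODE M21, of which 1 is protein-coding. No annotated gene overlaps it. Its paralogue Slc2a7 starts 4802 bp past its end. The long non-coding RNA Gm13093 lies on the opposite strand and runs away from it, with its own start 19 bp before that of Slc2a5. Khk (ENSMUSG00000029162) lies on chromosome 5 at 30921431 to 30931248 on the plus strand, with 5 transcripts, of which 4 are protein-coding, and no annotated gene overlaps it either. No window of 100 bases, the length of the sequenced reads, in any annotated transcript of either gene occurs in a transcript of another gene, out of 3297 windows for Slc2a5 and 2017 for Khk.

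The coding transcripts of Khk differ in a pair of alternative exons, which are shown because ketohexokinase exists as a high-affinity form, KHK-C, in liver, kidney and intestine and as a low-affinity form, KHK-A, in most other tissues, and because the form is set by this pair. Both exons are 135 bases long and coding. The first, at chr5:30926688-30926822, is in the transcripts Khk-201 and Khk-205, and the second, at chr5:30927022-30927156, is in Khk-201 and Khk-204. They agree at 73 of 135 positions (54.1%) when laid side by side without gaps. Capitals mark the 62 positions at which they differ.
Khk first alternative exon: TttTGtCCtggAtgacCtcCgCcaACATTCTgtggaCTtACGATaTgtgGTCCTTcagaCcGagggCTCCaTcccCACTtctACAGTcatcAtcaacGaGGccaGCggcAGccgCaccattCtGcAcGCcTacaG
Khk second alternative exon: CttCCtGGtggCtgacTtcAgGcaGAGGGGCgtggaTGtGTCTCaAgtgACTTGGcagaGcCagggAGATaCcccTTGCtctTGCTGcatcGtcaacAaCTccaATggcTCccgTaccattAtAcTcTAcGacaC
The table gives 1 value per gene, so the values below sum over all transcripts of Khk. These include Khk-201, which is annotated with both exons, and Khk-203, a coding transcript with neither. The share of each was not analysed here.

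Promoter sequence was taken from RefSeq for GRCm38.p6, as the window from 250 bases before to 50 bases after each gene's RefSeq start, and 2 of 2 genes were found. That start, at 150119344 for Slc2a5 and 30921559 for Khk, lies inside the GENCODE span given above. Distances to the start below are counted from it. The sequence is shown to place the motifs that factors of this pathway read. The Slc2a5 stretch below is chr4:150119094-150119282, which ends just before the first annotated exon, and capitals mark the GC box GGGCGG or its complement.
Slc2a5 upstream: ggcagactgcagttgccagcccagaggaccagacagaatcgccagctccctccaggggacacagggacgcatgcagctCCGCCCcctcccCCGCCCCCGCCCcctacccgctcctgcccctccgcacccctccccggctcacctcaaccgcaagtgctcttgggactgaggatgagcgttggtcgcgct
Khk has in its window the palindromic E-box CACGTG, the core of sites bound by ChREBP and other basic helix-loop-helix factors, and next to it GTTAAT, one arm of the site of the epithelial factor HNF1. Capitals mark both in the stretch chr5:30921482-30921511, which lies in the first exon of the longest annotated transcript.
Khk E-box stretch: ccccgtCACGTGacaccGTTAATctggcgc
Both strands were searched in 32851 promoter windows. The GC box was found 3 times in Slc2a5, at 172, 160 and 154 bases before the start, and once in Khk, at 38 bases before it, and is held by 35.7% of all windows. The E-box was found only in Khk among these 2 windows, at 71 bases before the start, and is held by 7.15% of all windows. GTTAAT was likewise found in Khk only, at 60 bases before the start, and is held by 7.10% of all windows. TATAAA, held by 13.6% of windows, was in neither. A pair of E-boxes spaced by any 5 bases, the strict form of a carbohydrate response element, was in none of the 32851 windows. Such matches describe letters only.

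Each library held between 10145705 and 12371530 reads assigned to genes, and values are normalized counts, that is, reads over a library-wide DESeq2 size factor of 0.852 to 1.10. NDI1 was listed at 0 reads in 4 Vil-Cre libraries and at 1 in Vil-Cre 3, and at 982 to 2575 normalized counts in Vil-Cre:NDI1 mice. Enterocyte transcripts were abundant in every library, for example Vil1 at 35067 to 49249. Slc10a2, the bile acid transporter of the ileum, was at 199, 561 and 561 normalized counts in Vil-Cre 1, 2 and 5 and at 541 and 219 in Vil-Cre:NDI1 4 and 5, while it was at 2.94 to 20.95 in the other 5 libraries. Onecut2, a factor of the proximal small intestine, was at 20.6 to 81.0 in the 5 libraries with high Slc10a2, against 341 to 744 in the others. Gata4, Fabp1, Slc46a1 and Lct, also proximal markers, were each lower in those 5 libraries than in the others. Fabp6, Slc51a, Slc51b and Mep1a, also ileal markers, were each higher. Cybrd1, a proximal marker, tended the other way, at 22.4 to 37.2 in those 5 against 13.7 to 25.2. Slc40a1 (proximal, 22.3 to 95.3 against 15.5 to 77.5) and Cubn (ileal, 4598 to 9449 against 5072 to 7114) did not split. The libraries labelled jejunum therefore carried unequal amounts of most, but not all, of the distal and proximal markers. The library Vil-Cre 5 also stood apart by B-cell transcripts, with Ms4a1 at 236 normalized counts against 0 to 7.83 in the other 9.

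Slc2a5 was expressed in all 10 mice. In Vil-Cre mice 1 to 5 it was at 1644, 1528, 2201, 1836 and 873 normalized counts. In Vil-Cre:NDI1 mice 1 to 5 it was at 2438, 1938, 1783, 2173 and 2344. The lowest library by far was Vil-Cre 5, 3 control mice were below every Vil-Cre:NDI1 mouse, 2 Vil-Cre:NDI1 mice were above every control, and the groups overlapped. The means were 1616 ± 488 (SD, n = 5) in Vil-Cre and 2135 ± 274 (SD, n = 5) in Vil-Cre:NDI1. The fewest reads behind a value were 899, in Vil-Cre 5 (exact Poisson 95% interval 841 to 960, which covers counting error only), so counting error was 3.34% there, while the spread between mice was 30.2% of the mean in Vil-Cre and 12.8% in Vil-Cre:NDI1.

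The log2 fold change of Slc2a5, Vil-Cre:NDI1 over Vil-Cre on log2(value + 1), was 0.45 (95% confidence interval -0.00153 to 0.91, a fold of 1.37 with an interval of 0.999 to 1.88). It did not pass the test over all genes (limma with Benjamini-Hochberg adjustment, adjusted p = 0.998). Permuting the genotypes exactly, in every possible way and two-sided, gave an exact permutation p = 0.0635, where the smallest possible is 0.00794. Adjusted over the 3 single comparisons made here, the 2 members and their ratio, that p was 0.0952. By limma, only the NDI1 transgene itself (1 of 14301 tested genes, or 0.00699%) was called at an adjusted p under 0.05, and 606 genes, or 4.24%, had an unadjusted p under 0.05. Without Vil-Cre 5 the log2 fold change of Slc2a5 was 0.25. With the mean level of 11 enterocyte genes as a covariate it was 0.13.

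**Figure D1:**
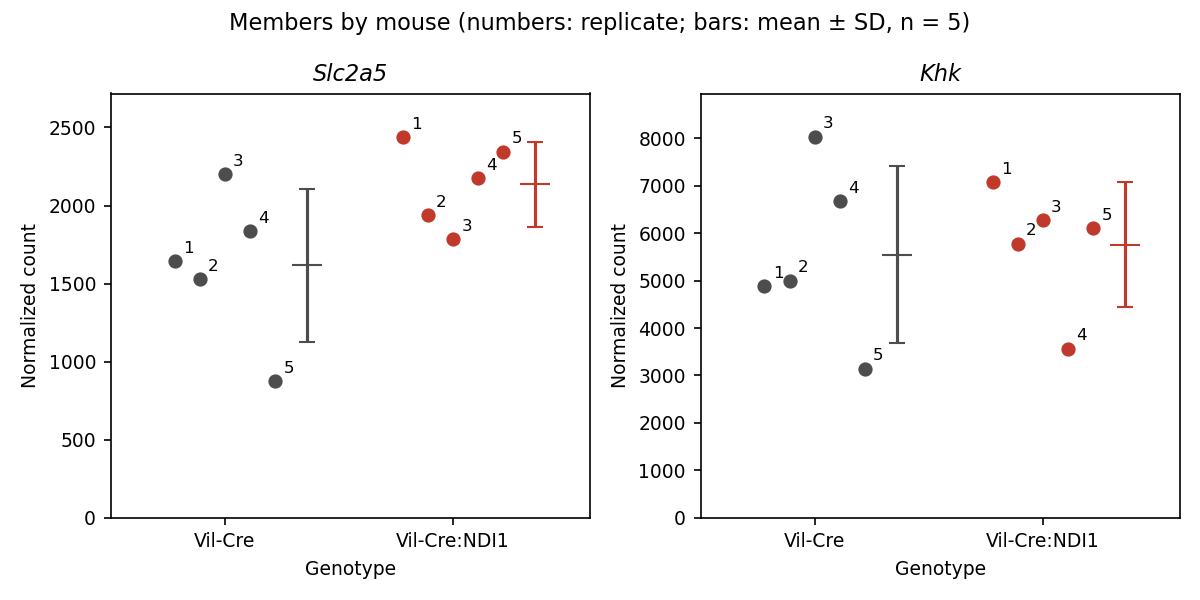
Normalized counts of Slc2a5 (left) and Khk (right) in each mouse by genotype, with replicate numbers beside the points and the mean ± SD of 5 mice as bars. Slc2a5 was above the control median of 1644 in all 5 Vil-Cre:NDI1 mice, and Vil-Cre 5 was the lowest mouse for both genes.

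Khk was the more abundant of the pair. In Vil-Cre mice 1 to 5 it was at 4883, 4999, 8035, 6668 and 3142 normalized counts. In Vil-Cre:NDI1 mice 1 to 5 it was at 7080, 5774, 6266, 3564 and 6105. The highest and the lowest library were both controls, so the range of Vil-Cre:NDI1 mice lay inside that of Vil-Cre mice. The means were 5545 ± 1869 (SD, n = 5) and 5758 ± 1317 (SD, n = 5). The log2 fold change was 0.09 (95% confidence interval -0.45 to 0.63; adjusted p = 0.998, limma), a fold of 1.063 with an interval of 0.730 to 1.55, and the exact permutation test gave p = 0.754. The interval holds changes of either sign, and the estimate turned to -0.10 without Vil-Cre 5, to -0.31 with the enterocyte covariate and to -0.07 with the mean of either the ileum or the proximal marker list as a covariate, both chosen after the values were seen.

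Per kilobase of annotated exon, taken as the union over all transcripts of a gene, the mean level over 10 mice was 3145 normalized counts for Khk and 551 for Slc2a5. Khk ranked 177th and Slc2a5 1043rd among the 14255 tested genes with a length, above 98.8% and 92.7% of them. Between the highest and the lowest mouse, Slc2a5 spanned 2.79-fold and Khk 2.56-fold.

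The balance between uptake and phosphorylation transcripts was described by the ratio of the counts of Slc2a5 to those of Khk in the same library, which does not depend on the library's scaling. In Vil-Cre mice 1 to 5 Slc2a5 was at 33.7%, 30.6%, 27.4%, 27.5% and 27.8% of Khk. In Vil-Cre:NDI1 mice 1 to 5 it was at 34.4%, 33.6%, 28.5%, 61.0% and 38.4%. The controls lay close together, 3 Vil-Cre:NDI1 mice lay above all of them, and Vil-Cre:NDI1 4 stood far from the rest. On the log2 scale the mean ratio was -1.77 ± 0.13 (SD, n = 5) in Vil-Cre and -1.40 ± 0.42 (SD, n = 5) in Vil-Cre:NDI1, a difference of 0.37 (exact permutation test, two-sided, p = 0.0476, and 0.0952 adjusted over the 3 single comparisons). Without Vil-Cre:NDI1 4 the difference was 0.19 (exact permutation test, p = 0.0873).

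Over the 10 mice, the log2 levels of Slc2a5 and Khk had a Pearson r of 0.67 (permutation p = 0.0580) and a Spearman rho of 0.62 (permutation p = 0.0599), with p-values of 0.0967 and 0.0999 after adjustment over the 5 relations examined. The relation rested on the extremes of Slc2a5, since r was 0.16 without Vil-Cre 5 and Vil-Cre:NDI1 1. Without Vil-Cre 5 alone r was 0.29 (permutation p = 0.453). Without Vil-Cre:NDI1 4, singled out for its high Slc2a5 beside low Khk, r was higher, at 0.92 (permutation p = 0.00442, unadjusted). After each genotype's mean was subtracted, r was 0.74 (permutation p = 0.0205). The genotypes were unlike in this, with an r of 0.97 over the 5 Vil-Cre mice and of 0.06 over the 5 Vil-Cre:NDI1 mice, which are given as a description, and the difference between them was not tested.

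**Figure D2:**
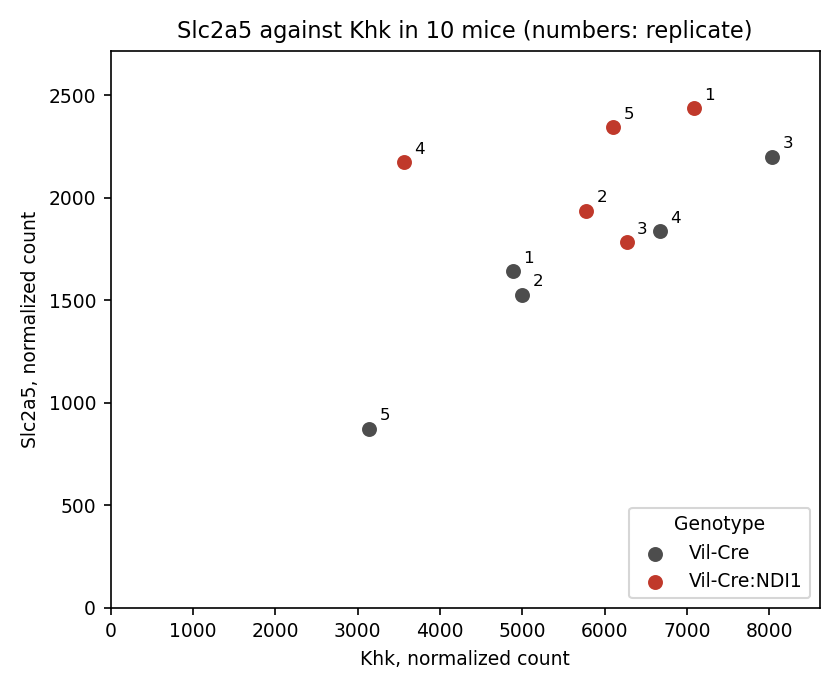
Normalized counts of Slc2a5 (vertical) against Khk (horizontal) in 10 mice, with replicate numbers beside the points. The 5 Vil-Cre mice lie near a line with Slc2a5 at 27.4% to 33.7% of Khk, and Vil-Cre:NDI1 4 lies apart at 61.0%.

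Among the 6 transport genes, 6 were tested, 0 passed the threshold, and all 6 fold changes were positive, with a median log2 fold change of 0.38 beside 0.01 over all genes tested. Their summed level was 4096 normalized counts in Vil-Cre 5, against 7950 to 11964 in the other mice. Leaving this control out lowered Slc2a2 from 0.30 to 0.02 and Slc2a9 from 0.16 to 0.04. Slc2a5 and Slc2a7 fell to 0.25 and 0.28, Slc2a8 rose to 0.26, and Slc2a12 missed the filter. The genes still tested kept a positive sign, but their shared direction rested in part on this control. Per kilobase, Slc2a2, the gene of the basolateral transporter GLUT2, was the highest at 1054 ± 287 (SD, n = 10), followed by Slc2a5 at 551 ± 136 (SD, n = 10), and it was above Slc2a5 in 10 of 10 mice. Slc2a7, whose protein GLUT7 is the closest relative of GLUT5 in the gut, was at 228 ± 85.8 (SD, n = 10), below Slc2a5 in 10 of 10 mice. Slc2a9, which codes for a urate transporter, Slc2a8, which codes for an intracellular transporter, and Slc2a12 followed at 137, 37.8 and 5.52 per kilobase.

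Slc2a7, the neighbour of Slc2a5 on the chromosome, was at 273, 293, 622, 481 and 152 normalized counts in Vil-Cre mice 1 to 5 and at 637, 457, 386, 377 and 579 in Vil-Cre:NDI1 mice 1 to 5. Its lowest mouse, Vil-Cre 5, and its highest, Vil-Cre:NDI1 1, were those of Slc2a5, and its groups overlapped. Its log2 fold change was 0.55 (95% confidence interval -0.17 to 1.27). Slc2a2 was at 5476, 5904, 7134, 6912 and 2428 normalized counts in Vil-Cre mice and at 8076, 6323, 7726, 4593 and 6062 in Vil-Cre:NDI1 mice, with a log2 fold change of 0.30 (95% confidence interval -0.30 to 0.90). As with Khk, Vil-Cre:NDI1 4 was the lowest of the Vil-Cre:NDI1 mice for Slc2a2. The log2 fold changes were 0.11 for Slc2a8 and 0.16 for Slc2a9. Slc2a12 had 0.93 with an interval of -0.65 to 2.52, from counts of 5.06 to 16.5 in Vil-Cre mice and of 86.6 and 67.8 in Vil-Cre:NDI1 2 and 3 beside 6.86 to 9.39 in the other 3.

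Of the 11 genes of fructolysis and triose handling examined, Khk included, 11 were tested and 0 passed the threshold. Their median log2 fold change was 0.07, the range was -0.16 to 0.52, and 8 of 11 were positive. Tkfc, the gene of the triokinase that phosphorylates glyceraldehyde, was at 3596 to 6410 normalized counts in Vil-Cre mice (median 5707) and at 4102 to 6410 in Vil-Cre:NDI1 mice (median 4842). Its log2 fold change was -0.09 (95% confidence interval -0.46 to 0.27). Gpd1, whose enzyme turns dihydroxyacetone phosphate into glycerol 3-phosphate, was at 5020, 4997, 6698, 5630 and 3505 in Vil-Cre mice and at 6735, 6175, 5431, 5448 and 6665 in Vil-Cre:NDI1 mice. The order of the mice resembled that of Slc2a5, and the log2 fold change was 0.26 (95% confidence interval -0.07 to 0.59). Tpi1, the gene of triose phosphate isomerase, varied little, from 6194 to 8179 normalized counts over all 10 mice. Per kilobase, Khk (3145), Aldh1b1 and Tpi1 (both 2688) were neighbours in order, and Khk was above Aldh1b1 in 6 of 10 mice, so those 2 levels did not differ beyond the spread between mice.

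The remaining genes of the list handle glyceraldehyde, glycerate or the return to glucose. Adh1, an alcohol dehydrogenase gene, had the widest range, with 596 to 5550 normalized counts in Vil-Cre mice (median 1510) and 810 to 4415 in Vil-Cre:NDI1 mice (median 3520). Aldh2 and Akr1a1, which code for an aldehyde dehydrogenase and an aldehyde reductase, stayed within 2516 to 3829 and 4977 to 6717. Glyctk, the glycerate kinase gene, was at 111 to 480. Of the fructose bisphosphatase genes, Fbp2 was at 2424 to 4087 and Fbp1 at 213 to 899. Aldh1b1, a mitochondrial aldehyde dehydrogenase gene, ran the other way among the controls, being highest in Vil-Cre 1 (7414) and lowest in Vil-Cre 3 (4385), the mouse with the most Khk.

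**Figure D3:**
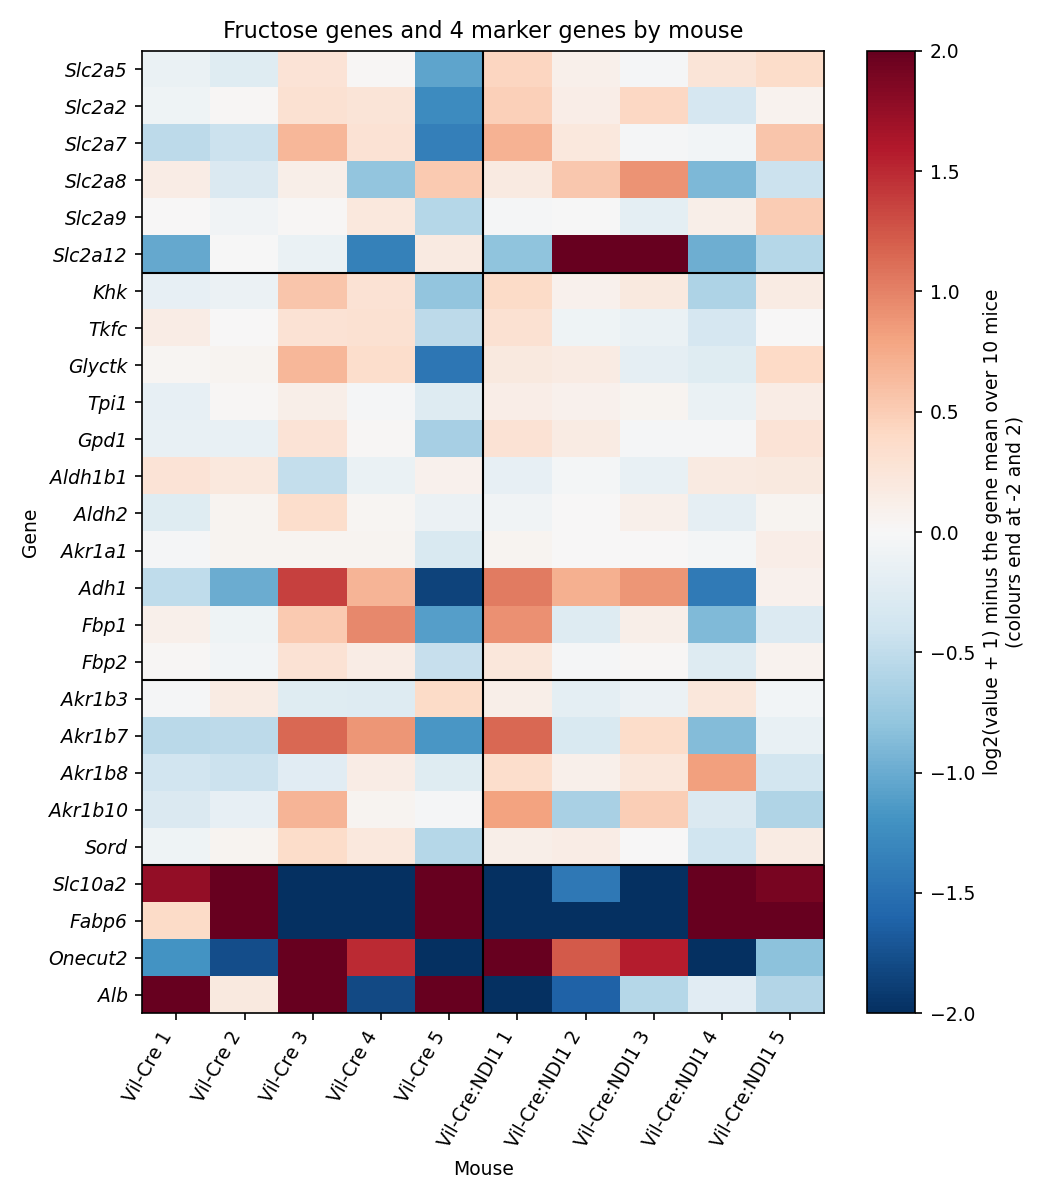
Heat map of log2(value + 1) minus the gene's mean over 10 mice for the 22 genes of fructose transport, fructolysis and the polyol route (rows, separated by lines) and, at the bottom, 4 marker genes, with mice in columns. Vil-Cre 5 is low for most fructose genes, and Vil-Cre:NDI1 4 is low for Khk and Adh1 but not for Slc2a5.

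The polyol route makes fructose inside the cell, by reduction of glucose to sorbitol and oxidation of sorbitol. Of its 5 genes, 0 passed the threshold, and the median log2 fold change was 0.02. Sord, the sorbitol dehydrogenase gene, was at 2187 to 4196 normalized counts in Vil-Cre mice and at 2478 to 3638 in Vil-Cre:NDI1 mice. Akr1b3, the aldose reductase gene, was low, at 172 to 269. Its relative Akr1b7 was at 781 to 3908 and was lowest in Vil-Cre 5. Akr1b8 was at 46.0 to 68.8 in Vil-Cre mice and at 48.1 to 111 in Vil-Cre:NDI1 mice, and Akr1b10 was at 31.9 to 89.2 over all mice. Per kilobase, Sord at 1408 and Akr1b7 at 1600 did not differ beyond the spread between mice, Akr1b7 being higher in 4 of 10.

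In all, 67 genes of fructose uptake, breakdown and control were listed, 63 were tested and 0 passed the threshold. Of the tested genes 46 had a positive fold change and the median was 0.07, beside 0.01 over all genes tested. At an unadjusted p under 0.05 there were 4 of 63 (6.35%), 2 higher and 2 lower, beside 4.24% of all genes, while the 22 genes of transport, fructolysis and the polyol route had 0. The groups did not overlap for 1 of 63, Hk1, beside 0.699% of all genes. The other lists had these counts. Hexokinases and aldolases had 7 genes, of which 5 were tested, with a median of 0.08. Regulators of fructose genes and of GLUT5 traffic had 14 genes, of which 14 were tested, with a median of 0.03. ChREBP targets had 10 genes, of which 9 were tested, with a median of -0.09. The GLUT family had 12 genes, of which 11 were tested, with a median of 0.17, and 8 of the 11 were positive. Neighbours in sugar absorption, such as the sucrase and lactase genes and Slc5a1, had 8 genes, of which 8 were tested, all positive, with a median of 0.31. Their summed level was 95753 normalized counts in Vil-Cre 5, against 170778 to 210497 in the other mice.

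The 3 genes of those other lists with the smallest p were Hk1, Rab11a and Slc5a9. Hk1, the gene of the widely expressed hexokinase 1, was at 233, 216, 193, 386 and 245 normalized counts in Vil-Cre mice and at 121, 162, 162, 146 and 189 in Vil-Cre:NDI1 mice. Its groups did not overlap, and the log2 fold change was -0.68 with a standard error of 0.19 (limma, adjusted p = 0.998). Rab11a, a GTPase of recycling endosomes that carry GLUT5 to the apical membrane, was at 920 to 1107 in Vil-Cre mice and at 1057 to 1357 in Vil-Cre:NDI1 mice (log2 fold change 0.26). Slc5a9, a sodium-coupled sugar transporter gene with mannose and fructose among its substrates, was at 466 to 685 and at 636 to 905 (log2 fold change 0.33). Mlxipl, the ChREBP gene, was at 1590 to 2546 in Vil-Cre mice and at 1547 to 2426 in Vil-Cre:NDI1 mice. Txnip, a gene that ChREBP and its partner activate strongly, was at 4999 to 7293 and at 5427 to 6756.

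**Figure D4:**
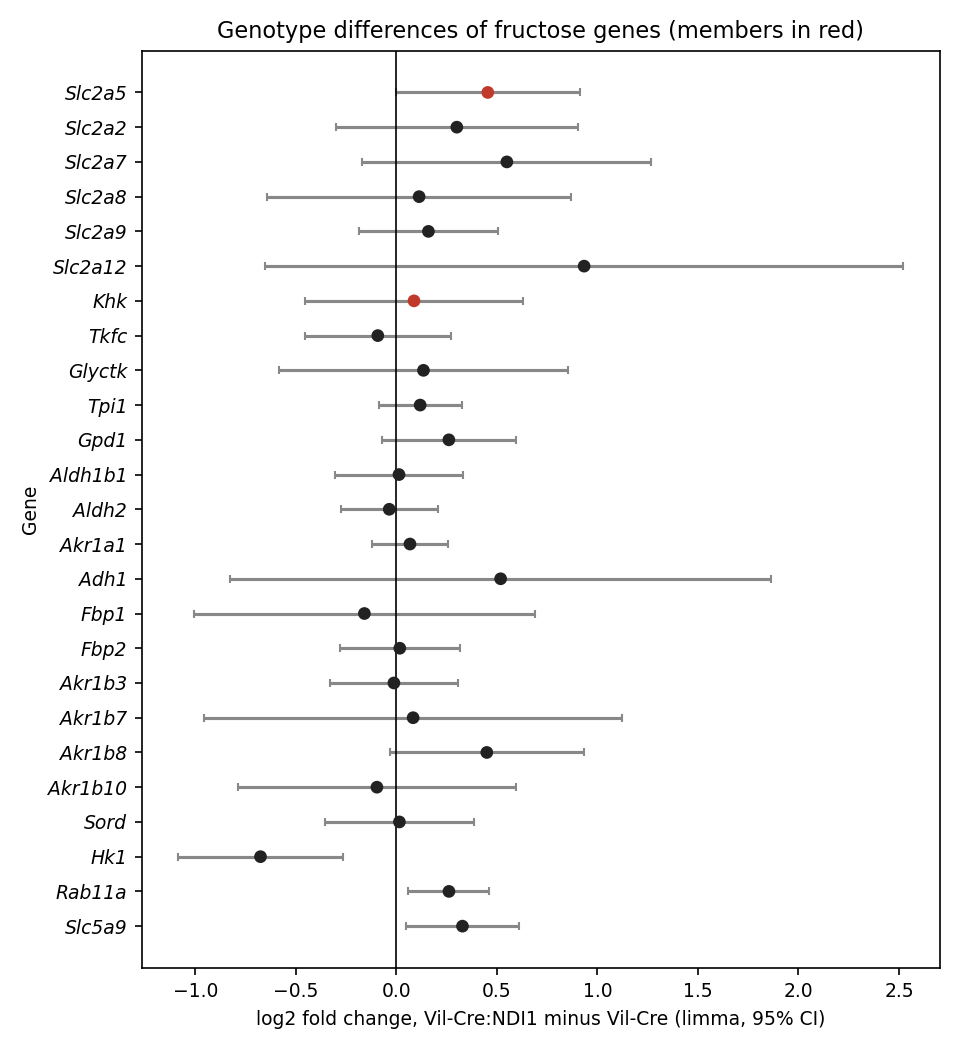
Log2 fold change, Vil-Cre:NDI1 minus Vil-Cre, with its 95% confidence interval from limma for the 22 genes of fructose transport, fructolysis and the polyol route and for Hk1, Rab11a and Slc5a9. The interval of Slc2a5 reaches from -0.00153 to 0.91 and that of Khk from -0.45 to 0.63, and the 22 intervals of the fructose genes all include 0.

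With the DESeq2 Wald test on the recovered reads, Slc2a5 had a log2 fold change of 0.40 (adjusted p = 0.709) on 10 libraries, on which 0.183% of all genes were called. A further run left out Vil-Cre 3 and Vil-Cre 4. Their size factors, 0.998 and 0.989, were too near 1 for a rounding check to decide. Their values above 0 were nonetheless all whole multiples of the smallest one (100%, within 0.01). In that run Slc2a5 was at 0.66 (adjusted p = 0.0406, DESeq2), Khk was at 0.41 (adjusted p = 0.457, DESeq2), and 1.77% of all genes were called. In the 8 libraries 5 of the 67 listed genes were called. Slc2a5, Slc2a7 (1.03) and Treh (0.77), the trehalase gene, were higher, and Hk1 (-0.57) and Me1 (-1.002), the malic enzyme gene, were lower on the log2 scale. The 3 controls that remained, Vil-Cre 1, 2 and 5, were those with Slc10a2 at 199 to 561, and the 2 left out had 6.01 and 12.1. In Vil-Cre:NDI1 mice, 2 of 5 libraries had high Slc10a2. Distal marker level and genotype therefore moved together in that comparison, and the part of the former in it was not tested.

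Set against Slc10a2, both members were lower in the controls with high Slc10a2, and they differed only through Vil-Cre:NDI1 4. Khk was at 4883, 4999 and 3142 normalized counts in the 3 control libraries with high Slc10a2 and at 8035 and 6668 in the other 2 controls. It was at 3564 and 6105 in Vil-Cre:NDI1 4 and 5, which had high Slc10a2, and at 7080, 5774 and 6266 in Vil-Cre:NDI1 1, 2 and 3. Only Vil-Cre:NDI1 5, among the libraries with high Slc10a2, reached the level of those without. Slc2a5 was at 1644, 1528 and 873 in the 3 controls with high Slc10a2, below the 2201 and 1836 of the other 2 controls. In Vil-Cre:NDI1 mice it was at 2173 and 2344 in the libraries with high Slc10a2, within the 2438, 1938 and 1783 of Vil-Cre:NDI1 1, 2 and 3. Since the libraries fall into separate clusters by Slc10a2, with 5 in each, no pooled correlation with it is given, and genotypes were not tested within a cluster, where 2 mice stand against 3.

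**Figure D5:**
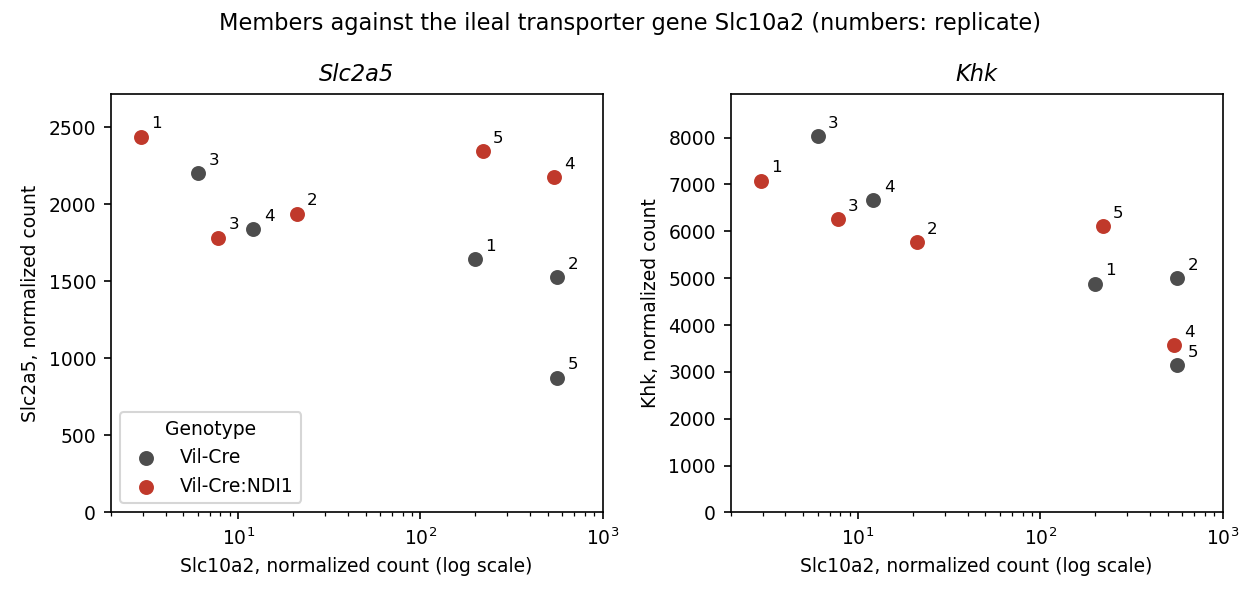
Normalized counts of Slc2a5 (left) and Khk (right) against Slc10a2 (log scale), the ileal bile acid transporter gene, in 10 mice with replicate numbers. Slc10a2 splits the libraries into 5 with 2.94 to 20.95 and 5 with 199 to 561, and in the latter Slc2a5 is at 873 to 1644 in Vil-Cre and at 2173 and 2344 in Vil-Cre:NDI1.

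The mean of the enterocyte list also moved with both members, but not each of its genes did. With Khk, Fabp2 (Pearson r -0.47), Dpp4 (-0.10) and Anpep (-0.03) were negative. The rest were positive, from 0.13 for Vil1 to 0.93 for Lct. With Slc2a5 all were positive, from 0.09 for Fabp2 to 0.86 for Mttp. The summed level of 11 enterocyte genes was 368683 to 606518 normalized counts in Vil-Cre mice, with the minimum in Vil-Cre 5, and 545592 to 715681 in Vil-Cre:NDI1 mice. Its mean log2 level had a Pearson r of 0.91 with Slc2a5 (permutation p = 0.00720, adjusted over 5 relations 0.0180) and a Spearman rho of 0.81 (permutation p = 0.00722, adjusted 0.0361). With Khk it had a Pearson r of 0.82 (permutation p = 0.00462, adjusted 0.0180) and a Spearman rho of 0.67 (permutation p = 0.0394, adjusted 0.0985). Without the 2 mice farthest from the median of each member the r values were 0.66 and 0.60. Over the 5 mice of each genotype, as a description, r was 0.99 in Vil-Cre and 0.22 in Vil-Cre:NDI1 mice for Slc2a5, and 0.96 and 0.71 for Khk. Fabp1 and Lct, both on this list, are also on the proximal list. All 11 enterocyte genes had a positive fold change by genotype and 0 passed the threshold.

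Of the 17 marker lists examined, 0 of 102 tested genes passed the threshold, and 6 had an unadjusted p under 0.05 (5.88%, beside 4.24% of all genes), 1 higher and 5 lower. Of the 5 lower genes 3 were hepatocyte genes. Liver expresses Khk strongly, and traces of hepatocyte transcripts were present. Alb was at 763, 63.5, 294, 15.2 and 557 normalized counts in Vil-Cre mice and at 0.980, 17.3, 36.8, 47.0 and 36.4 in Vil-Cre:NDI1 mice. Fgb was listed at 0 in Vil-Cre 4 and Vil-Cre:NDI1 1. Of the 14 hepatocyte genes, 8 were tested, with a median log2 fold change of -1.01, the largest shift of the 17 lists, and 3 of the 8 (37.5%) had an unadjusted p under 0.05. These were Alb at -3.14, Ttr at -1.03 and Tat at -2.20, and none passed the threshold after adjustment. The summed level of the list, mostly Apoc3 and Cps1, which enterocytes also express, was 5840 to 9797 in Vil-Cre and 7939 to 9103 in Vil-Cre:NDI1 mice. The library with the most Alb, Vil-Cre 1, had 4883 normalized counts of Khk, and Vil-Cre 4, with 15.2 of Alb, had 6668. The mean log2 level of the list had an r of -0.39 (permutation p = 0.264, adjusted 0.264) and a rho of -0.44 (permutation p = 0.205, adjusted 0.205) with Khk, and an r of -0.53 (permutation p = 0.131, adjusted 0.164) and a rho of -0.55 (permutation p = 0.105, adjusted 0.131) with Slc2a5.

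The other lists gave these median log2 fold changes and ranges of summed normalized counts. The proximal list had a median of 0.36, with sums of 10764 to 52609 in Vil-Cre and 21299 to 48725 in Vil-Cre:NDI1 mice. The ileum list, of which 7 of 8 genes were matched, had -0.28, with 11341 to 22297 and 10015 to 21051. B and plasma cells had -0.38, with 10205 to 24709 and 9081 to 35284. The lowest Slc2a5 and Khk were in the library with the most Ms4a1, and the part of those cells in it was not tested. Smooth muscle had -0.07, with 12159 to 25654 and 13967 to 25478. Crypt cells had 0.05, Paneth cells -0.14, goblet cells -0.21, tuft cells -0.45, enteroendocrine cells -0.04, T cells -0.18, macrophages -0.46, neurons and glia 0.03, endothelium -0.12, adipocytes 0.14 and exocrine pancreas, with 1 gene tested, 0.12.

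By Pearson r over the 10 mice, the 5 tested genes most like Slc2a5 were Surf4, a cargo receptor of the early secretory pathway (0.97), Mme, the brush-border peptidase neprilysin (0.96), Gpd1 (0.96), Tmem205 (0.95) and Rab1, a GTPase of traffic from the endoplasmic reticulum to the Golgi (0.95). The 5 most like Khk were Mocs2, of molybdenum cofactor synthesis (0.99), Pbld2 (0.98), Arf5, a GTPase of the Golgi (0.98), Ephx2, soluble epoxide hydrolase (0.97), and Marc2, a mitochondrial amidoxime reductase (0.97), whose name was damaged in the table and was restored from its identifier. The 2 sets share no gene. Khk was 823rd in the order of Slc2a5, and Slc2a5 was 1277th in that of Khk. Likeness to Khk was the more common, since 4.04% of the other 14300 genes had an r of at least 0.8 with Khk and 1.73% with Slc2a5, while the median r was -0.02 for both.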

How the data were processed

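Single-end reads of 100 bases were, per the methods of the study, trimmed with trimGalore!, mapped by STAR on a GRCm38 genome extended by NDI1, quantified per gene by Salmon and normalized with DESeq2 by the authors. The deposited values are a signal, counts divided by 1 size factor per library. The annotation release and strand setting are not given in the sources used here. In every library 100% of values above 0 equalled a whole number of times the smallest one, within 0.01, so reads were recovered, although for Vil-Cre 3 and 4 a guard against rounding could not decide.

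Genotypes were compared with limma 3.58.1 (R 4.3.3) on log2(value + 1), with a variance trend, over genes at 10 or more in at least 5 libraries. On this scale changes of low genes are understated. DESeq2 1.42.0, edgeR 4.0.16, a replicate block, other pseudocounts, filters, scalings and covariates, and leaving out each mouse were alternatives. The tests were tested on simulated reads. Permutation tests of single values enumerated all assignments, and those of correlations drew 100000 (scipy 1.17.1). Replicates of a genotype differed by 13.2 to 61.9 in chi-square per gene, so no library was a duplicate. Named genes were the members, all genes of the transport, fructolysis and polyol lists, the 3 of smallest p in the other lists, and 5 genes most like each member. Mlxipl, Txnip, Treh, Me1 and the marker genes were named after their values were seen. Of 45707 rows, 45143 matched GENCODE M21. The members and lists were chosen with earlier results of these data known. A pathway gene and a marker gene are left out of the lists and not reported here.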

Additional observations from a re-analysis of the deposited data

Results flagged for a closer look

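Each of 52 groups of 5 values, of the members, their ratio and the named pathway genes in each genotype, was examined for a mouse far from the other 4 (gap over range above 0.71). Chance flags about 1 in 20 such groups, or 2.6 here, and 3 were found. Neither member was among them. Akr1a1 was at 4977 normalized counts in Vil-Cre 5, against 6051 to 6404 in the other 4 controls. Akr1b10 was at 81.1 in Vil-Cre 3, against 41.1 to 52.6. Hk1 was at 386 in Vil-Cre 4, against 193 to 245, and that mouse is the control farthest from the Vil-Cre:NDI1 mice in the comparison of Hk1.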

How the results depend on the processing

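Slc2a5 kept a positive log2 fold change in every alternative run, from 0.13 to 0.66, and passed the threshold in 1 of them, DESeq2 on 8 libraries (0.66). Leaving out 1 mouse at a time gave 0.25 to 0.58. Khk was negative with the enterocyte list (-0.31), the ileum list (-0.0674) and the proximal list (-0.0727) as a covariate, the last 2 being added after the values were seen, and ran from -0.10 to 0.25 with a mouse left out. With the enterocyte list as a covariate, Slc2a2 (-0.14) and Slc2a9 (-0.0585) were also negative. Slc2a8 ran from -0.10 to 0.35 with a mouse left out, and Tkfc was 0.067 with DESeq2 on 8 libraries. Of the 23 named genes beside the members, 15 changed sign in at least 1 alternative. The causes were not tested. The count of called genes moved from 1 to 2 with a filter of 50, with array weights and with the ileum covariate. It moved to 3 with the proximal covariate, to 31 with DESeq2 and to 276 with DESeq2 on 8 libraries. With a mouse left out the count was 0 or 1. NDI1 misses the filter wherever that mouse is Vil-Cre:NDI1. The 1 gene called without Vil-Cre:NDI1 1 (lower) and the 1 called without Vil-Cre:NDI1 5 (higher) were therefore not NDI1. Of the 67 listed genes 0 were called in every setting except DESeq2 on 8 libraries (5).

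The ratio of Slc2a5 to Khk differed by 0.19 to 0.47 on the log2 scale with a mouse left out, and 7 of those 10 exact permutation p-values were above 0.05. With the replicate block it was 0.37 (exact sign-flip test, p = 0.0625, the smallest that 5 pairs allow). Across genes, the deviations of same-numbered mice from their genotype means had correlations of -0.12 to 0.14. Whether equal replicate numbers mark paired mice was not settled, since such deviations also carry differences such as that in Slc10a2. The block left the fold changes of Slc2a5 at 0.45 and of Khk at 0.09, the NDI1 check at 10.34 and the calls at 1 and 0. The correlation of Slc2a5 with Khk was 0.74 after subtracting genotype means and 0.29 to 0.92 with a mouse left out.

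With 5 mice per genotype and coefficients of variation up to 33.7%, the intervals of both members include folds from below 1 to 1.5 or more. Counting error was not the limit.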
